A study of Mus musculus with 6 samples.

Results

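Genes of the interferon response and of antigen presentation, 10 in all, were followed in cultured mouse cortical neurons: B2m, H2-K1, Ifit2, Oasl2, Ifitm3, Isg15, Irf9, Stat2, Ifi27 and Gbp3. They were taken as every array probe whose platform gene symbol is one of these names, which gave 18 probes for 10 genes out of 45281 probes on the array. Detection p fell under 0.05 on 3 or more of the 6 arrays for 14 of the 18 probes, which were tested, and each of the 10 genes kept at least 1 tested probe, among 10821 genes tested in all. Ifitm3, Isg15 and Stat2 had 1 probe each, B2m had 3 and the other 6 genes had 2 each. The genes are spread over the genome: in RefSeq GRCm38.p6 they lie on chromosomes 2 (B2m), 17 (H2-K1), 19 (Ifit2), 5 (Oasl2), 7 (Ifitm3), 4 (Isg15), 14 (Irf9), 10 (Stat2), 12 (Ifi27) and 3 (Gbp3).

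Total RNA came from dissociated cortical neurons of strain C57BL/6J with the genotype Dicerflox/flox, on day 14 in culture. Lentivirus was used on every culture, at a multiplicity of infection of 5: the control group (3 arrays) a control lentivirus, the knockdown group (3 arrays) a lentivirus that knocks down miR-27b. The floxed Dicer alleles and the viral infection were thus shared by both groups, the labels name no Cre for either, and neurons without virus were not analysed here. The series describes 3 neuronal preparations, and the question its title poses is how expression differs once miR-27b is lowered. No probe on the array is named for miR-27b (0 probes), so its own level was not measured. The mature strand of this microRNA is shown because it is what the treatment targets (RefSeq, GRCm38.p6, chr13:63300760-63300780, plus strand), with its seed, bases 2 to 8, in capitals.
miR-27b-3p: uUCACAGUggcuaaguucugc

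Interferons are secreted when a cell senses foreign or misplaced nucleic acid. Type I interferon binds its receptor, Janus kinases phosphorylate STAT proteins, and a complex that holds STAT2 and IRF9 binds the interferon-stimulated response element (ISRE) in the promoters of responding genes. Their products block viral entry, translation and replication, and raise the class I molecules that show peptides at the cell surface. In neurons class I molecules are also known for a part in synaptic plasticity and in the pruning of connections.

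The promoter windows of the members, 250 bases before to 50 after each annotated start (RefSeq, GRCm38.p6), were read for the ISRE core GAAANNGAAA on both strands, overlapping matches included. Of the 10 members 9 matched the promoter table, all but Ifi27, and 5 of these 9 (55.6%) held a core, against 1079 of 27025 genes (3.99%) in the whole table and 31 of 116 other pathway genes (26.7%) described below. Isg15 held 3 cores, which overlap (0.0152% of all 32851 windows hold 3 or more cores), Gbp3 and Ifitm3 held 2 each, and B2m and Stat2 held 1 each. The windows of H2-K1, Ifit2, Oasl2 and Irf9 held none. The windows shown are those of the members with a core and the smallest p in the comparison below, each on the strand of its gene with the core letters in capitals: B2m at chr2:122147437-122147736 (plus strand), Ifitm3 at chr7:141010695-141010994 (minus strand) and Gbp3 at chr3:142559794-142560093 (plus strand).
B2m: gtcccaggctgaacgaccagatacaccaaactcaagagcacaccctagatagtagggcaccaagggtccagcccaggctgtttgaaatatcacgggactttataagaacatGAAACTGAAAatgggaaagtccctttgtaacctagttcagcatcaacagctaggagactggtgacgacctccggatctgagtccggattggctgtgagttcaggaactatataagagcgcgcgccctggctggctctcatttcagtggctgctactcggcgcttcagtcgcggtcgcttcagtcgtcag
Ifitm3: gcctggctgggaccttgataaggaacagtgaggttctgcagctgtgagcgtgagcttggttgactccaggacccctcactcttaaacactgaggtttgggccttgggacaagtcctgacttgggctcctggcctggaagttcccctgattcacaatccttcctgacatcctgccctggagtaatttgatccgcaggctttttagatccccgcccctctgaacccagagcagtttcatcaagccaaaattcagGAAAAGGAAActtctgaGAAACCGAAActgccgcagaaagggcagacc
Gbp3: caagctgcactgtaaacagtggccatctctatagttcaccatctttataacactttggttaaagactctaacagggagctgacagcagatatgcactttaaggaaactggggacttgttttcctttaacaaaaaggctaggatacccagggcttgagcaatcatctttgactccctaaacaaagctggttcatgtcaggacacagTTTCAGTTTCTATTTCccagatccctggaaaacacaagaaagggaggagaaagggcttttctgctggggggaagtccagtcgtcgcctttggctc

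**Figure D1:**
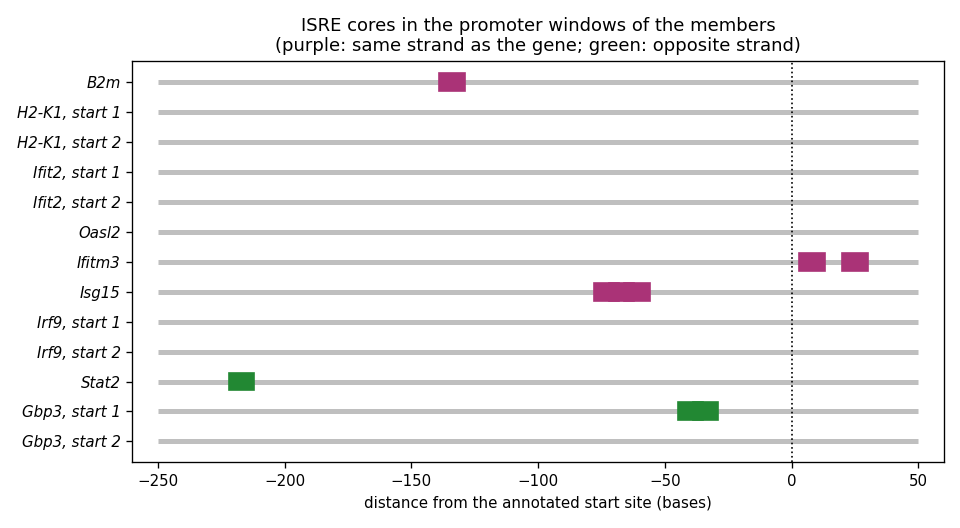
Position of ISRE cores in each promoter window of the 9 members found in the promoter table; the x axis is the distance from the annotated start in bases, grey lines are the windows, and boxes are cores (purple on the strand of the gene, green on the opposite strand). The core of B2m begins at -139, the 3 of Isg15 at -78, -72 and -66, and those of Ifitm3 lie just after the start, at 3 and 20.

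Over all 6 arrays, 38.6% to 42.3% of probes were detected per array and mean deposited intensities ran from 669 to 788; knockdown replicate 3 correlated least with the other arrays (median Spearman correlation 0.877 across probes). Precision is limited throughout by having 3 arrays per group. Differences are given as knockdown minus control on the log2 scale after background correction and quantile normalisation, from a fit that does not pair arrays. Limma p-values were adjusted over all 10821 genes, with a threshold of 0.05. Of all genes, 32.5% passed that threshold, 17.1% higher and 15.4% lower after knockdown. With replicate number as a block, the arrays of 1 number being treated as a pair, 34.2% of all genes passed, and 17.7% were higher. Among the 10 members 3 rose (B2m, Ifit2 and Oasl2), 1 fell (Ifitm3) and 6 did not pass; with the block 4 were higher and 2 lower, Ifi27 and Gbp3 being added. Without the block the share called, 4 of 10, is near that background. Oasl2 entered this count through its knockdown arrays alone, being detected on no control array. The median difference of the members was 0.21, against 0.0088 over all genes, and 0.13 without knockdown replicate 2. The members were chosen with earlier results of these data known, and the median includes Oasl2. That contrast is therefore partly fixed by the choice and is no independent result.

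**Figure D2:**
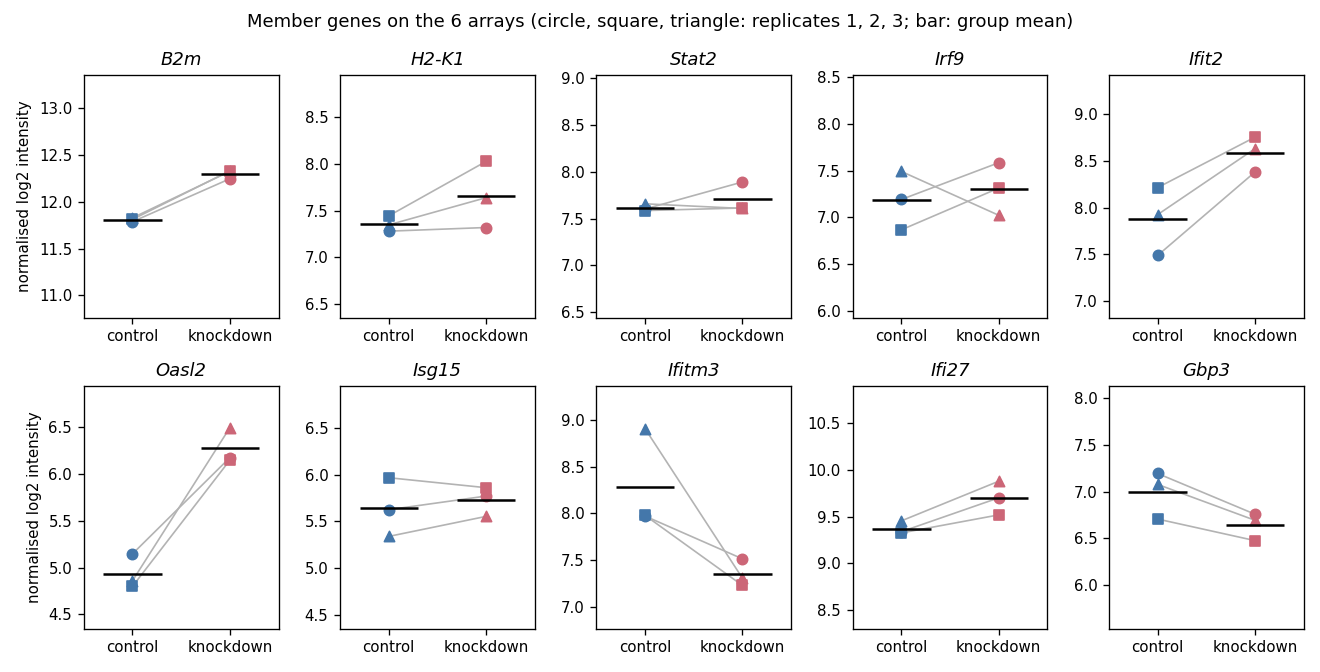
Normalised log2 intensity of each member's brightest detected probe on the 6 arrays; blue points are control arrays, red points knockdown arrays, lines join arrays of the same replicate number, bars are group means, and each panel spans the same range. Control and knockdown points are apart for B2m, Ifit2, Oasl2, Ifitm3 and Ifi27 and overlap for the other 5 genes.

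B2m, which encodes the light chain that every classical class I molecule needs to reach the cell surface, rose with little scatter. Its deposited intensities were 3874, 3894 and 3534 on the control arrays and 4982, 5409 and 4571 on the knockdown arrays of the same numbers. Every knockdown array lay above every control array. On the normalised log2 scale the mean went from 11.81 to 12.30, a difference of 0.49 (SE 0.071, n = 3 per group, limma adjusted p = 0.00353), or 1.41-fold. The 3 pairs of same-numbered arrays gave differences of 0.46, 0.52 and 0.50. Across all 18627 detected probes, tested 1 by 1, 27.4% passed and 13.9% were higher. A second detected probe of B2m differed by 0.62 (SE 0.080, limma adjusted p over all detected probes 0.00287), with deposited intensities of 3361, 3323 and 3067 in controls and 4874, 5199 and 4130 after knockdown. The remaining B2m probe was detected on no array, at 64.4 to 97.4. The size of the rise depended on how arrays were scaled: when arrays were scaled to a common median instead of quantile normalised, B2m differed by 0.34 (limma adjusted p = 0.187).

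H2-K1 encodes a classical class I heavy chain, the partner of B2m that carries the peptide. Its detected probe read 233, 252 and 227 in controls and 239, 350 and 271 after knockdown. The groups overlapped, since knockdown replicate 1 lay within the control range. The difference of 0.30 on the normalised log2 scale (SE 0.18, limma adjusted p = 0.233) did not pass, and its 95% interval of -0.12 to 0.73 holds both 0 and a value as large as that of B2m. The difference without knockdown replicate 2 was 0.12. The other H2-K1 probe was detected on 1 control and 1 knockdown array, with a highest intensity of 138, and was not tested. Class I genes are near-identical in places, and whether their probes also bind relatives was not checked here.

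Stat2 and Irf9, the DNA-binding partners that carry the type I interferon signal to the ISRE, did not pass. Stat2 read 273, 271 and 262 in controls and 320, 282 and 267 after knockdown. Its difference was 0.089 on the normalised log2 scale (SE 0.10, limma adjusted p = 0.542, 95% interval -0.15 to 0.33). Irf9 read 223, 192 and 242 in controls and 272, 240 and 208 after knockdown, with a difference of 0.12 (SE 0.20, limma adjusted p = 0.675, 95% interval -0.36 to 0.60). In both genes the groups overlapped, and Irf9 was higher in the replicate pairs 1 and 2 (by 0.39 and 0.45) and lower in pair 3 (by -0.47). The other Irf9 probe was detected on no array.

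Oasl2, an oligoadenylate synthetase-like gene known as a strongly induced interferon target, rose from below background. Its probe read 98.6, 75.5 and 81.3 in controls, with detection p of 0.234, 0.772 and 0.651, so it was not above background on any control array. It read 148, 148 and 171 on the knockdown arrays, with detection p of 0.0214, 0.0214 and 0.0139. Knockdown neurons therefore had at least 1.39-fold more signal than controls (at least 1.18-fold without background correction), the control bound being the dimmest detected probe of each array or the probe's own value if higher. The fitted difference was 1.34 (SE 0.14, limma adjusted p = 0.00109; group means 4.93 and 6.27), or 0.85 without background correction and 0.79 with a larger offset of 50 in that correction. The second Oasl2 probe was detected on no array, at 68.1 to 105, so the rise rests on a single dim probe. That probe met the detection filter through the knockdown arrays alone, so its entry among the tested genes depended on the group where it was high.

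Ifit2, whose protein binds viral RNA and curbs its translation, rose on both of its probes. The probe used read 258, 382 and 300 in controls and 419, 528 and 450 after knockdown. The other read 244, 295 and 234 in controls and 439, 471 and 344 after knockdown. On both probes the lowest knockdown array lay above the highest control array. The differences on the normalised log2 scale were 0.71 (SE 0.20, limma adjusted p = 0.0337, 1.64-fold) for the probe used and 0.86 (SE 0.16, limma adjusted p over all detected probes 0.00938) for the other. The first of these calls was lost without control replicate 1 (0.52, adjusted p = 0.0685), control replicate 3 (0.74, adjusted p = 0.0719), knockdown replicate 2 (0.63, adjusted p = 0.0995) or knockdown replicate 3 (0.69, adjusted p = 0.0787). With replicate number as a block its adjusted p was 0.00923.

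Isg15 encodes the ubiquitin-like modifier that is among the earliest and most abundant products of an interferon response. Its only probe was dim in both groups: it read 121, 137 and 107 in controls and 128, 134 and 126 after knockdown, and was detected on 1 control and 2 knockdown arrays. The groups overlapped. The difference was 0.085 on the normalised log2 scale (SE 0.17, limma adjusted p = 0.745), with a 95% interval of -0.33 to 0.50.

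Ifitm3, whose membrane protein blocks fusion of enveloped viruses with endosomes, was the member that fell. It read 329, 334 and 524 in controls and 263, 231 and 232 after knockdown. All knockdown arrays lay below all control arrays, and control replicate 3 stood well above the other controls. The mean went from 8.28 to 7.35 on the normalised log2 scale, a difference of -0.94 (SE 0.26, n = 3 per group, limma adjusted p = 0.0341), which is 1.91-fold lower. The pairs of same-numbered arrays differed by -0.46, -0.75 and -1.60. Without control replicate 3 the difference was -0.63 (adjusted p = 0.0149). The call was lost without knockdown replicate 1 (-1.02, adjusted p = 0.0646), replicate 2 (-0.88, adjusted p = 0.0957) or replicate 3 (-0.91, adjusted p = 0.0789).

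Astrocyte markers were lower in the same arrays as Ifitm3. Of 13 tested astrocyte markers 0 rose (0 at an unadjusted p under 0.05), 6 fell and 7 did not pass. The median difference was -0.67, and all 13 differences were below 0. With the replicate block 8 were lower. Gjb6, among the 6 that fell, met the detection filter through control arrays alone. Gfap, the astrocyte intermediate filament gene, fell by 1.83 (SE 0.30, limma adjusted p = 0.00544) and Aqp4, the water channel gene, fell by 1.29 (SE 0.16, adjusted p = 0.00227). Of all genes 15.4% fell. The summed normalised intensity of the 13 markers was 29601, 27563 and 37601 in controls and 23748, 20764 and 25548 after knockdown. Other sums were lower too: that of 11 neuronal markers ran from 119744 to 121758 in controls and from 92842 to 99850 after knockdown. For 4 oligodendrocyte lineage markers these ranges were 8271 to 11111 and 4804 to 7710. Vascular and fibroblast sums overlapped, at 1045 to 2139 and 1128 to 1785. Control replicate 3 thus had the highest astrocyte sum as well as the highest Ifitm3. Among controls it also had the highest vascular and fibroblast (2139), oligodendrocyte lineage (11111) and microglia (383) sums, and the lowest neuronal sum (119744). Among knockdown arrays the astrocyte sum was highest in replicate 3, whereas Ifitm3 was highest in replicate 1 (7.51 against 7.30 on the normalised log2 scale). The S100b probes were detected on no array. In bulk RNA fewer cells of a type and less RNA per cell cannot be told apart, and the part of astrocytes in the Ifitm3 result was not tested.

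Ifi27, which encodes a small interferon-induced membrane protein, lay higher on every knockdown array without passing. The probe used read 741, 740 and 734 in controls and 927, 856 and 933 after knockdown, and the other read 592, 543 and 552 against 705, 665 and 698. The groups did not overlap on either probe. The difference was 0.33 on the normalised log2 scale (SE 0.11, limma adjusted p = 0.0627; 0.34 and 0.0545 for the other probe over all detected probes). It passed with replicate number as a block (adjusted p = 0.0429), without background correction (0.30, adjusted p = 0.0438) and without knockdown replicate 2 (0.42, adjusted p = 0.0402).

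Gbp3 encodes a guanylate-binding protein, a GTPase family that interferon gamma induces and that attacks the vacuoles of intracellular pathogens. The probe used read 224, 179 and 201 in controls and 187, 167 and 183 after knockdown, lower in each of the 3 pairs with overlapping groups. The difference of -0.35 (SE 0.15, limma adjusted p = 0.118) did not pass; it did with replicate number as a block (adjusted p = 0.0333) and without control replicate 2 (-0.49, adjusted p = 0.0374). The second Gbp3 probe showed no such difference, at -0.0054 (SE 0.16, limma adjusted p = 0.984).

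**Figure D3:**
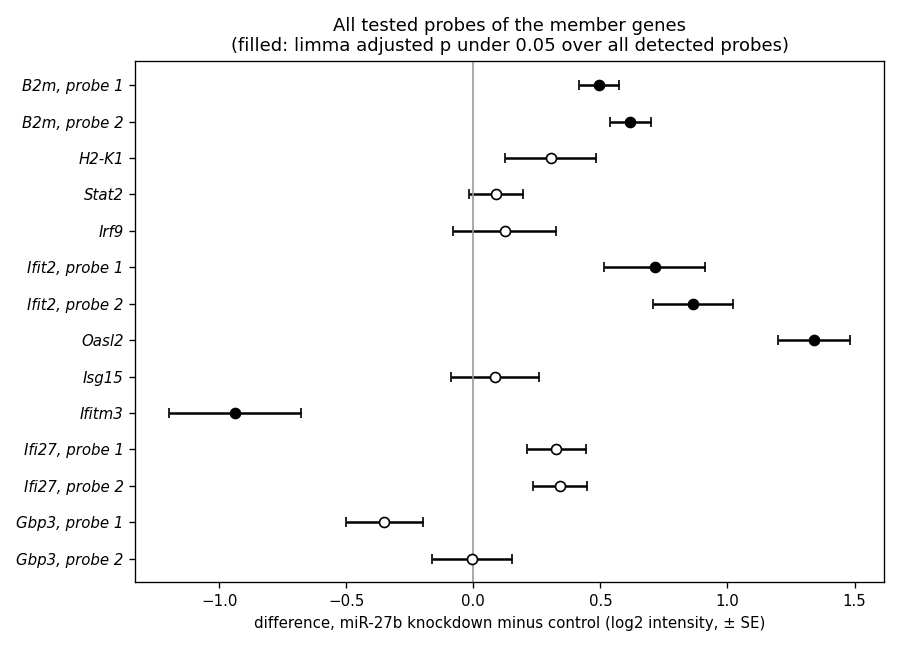
Difference of each of the 14 tested member probes, knockdown minus control in log2 intensity, with bars of 1 SE; filled points passed a limma adjusted p of 0.05 over all detected probes. Both tested probes of B2m and both of Ifit2 passed on the higher side, and the probes of Ifi27 lay close together, while those of Gbp3 did not.

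The non-overlap of groups is common in these data: control and knockdown values were apart for 48.9% of all genes, 25.5% on the higher and 23.4% on the lower side. Among the members 5 of 10 were apart (B2m, Ifit2, Oasl2 and Ifi27 higher, Ifitm3 lower), a share near that background. A two-sided exact permutation test of 3 against 3 arrays gave p = 0.1 for each of these 5 genes. That is the smallest value it can reach. Groups that do not overlap always give it, so the test adds nothing to the non-overlap.

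The other genes of the pathway were taken from lists of receptors, factors, sensors, effectors and presentation genes. The lists too were chosen with earlier results of these data known. Of 157 listed genes 149 were named on the array and 57 were tested. Of these 11 rose, 6 fell and 40 did not pass, with a median difference of 0.047. Among the genes called, Trim21 met the detection filter through knockdown arrays alone, and Socs3 and H2-Ab1 through control arrays alone. The shares called are near the 17.1% and 15.4% of all genes. Scaling moved this balance, as it did for all genes: with median scaling 5 of the pathway genes were higher and 7 lower, and 905 of all genes were higher and 1321 lower, or 40.7% of calls higher against 52.7%. Values below are normalised log2 differences from the same fit.

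**Figure D4:**
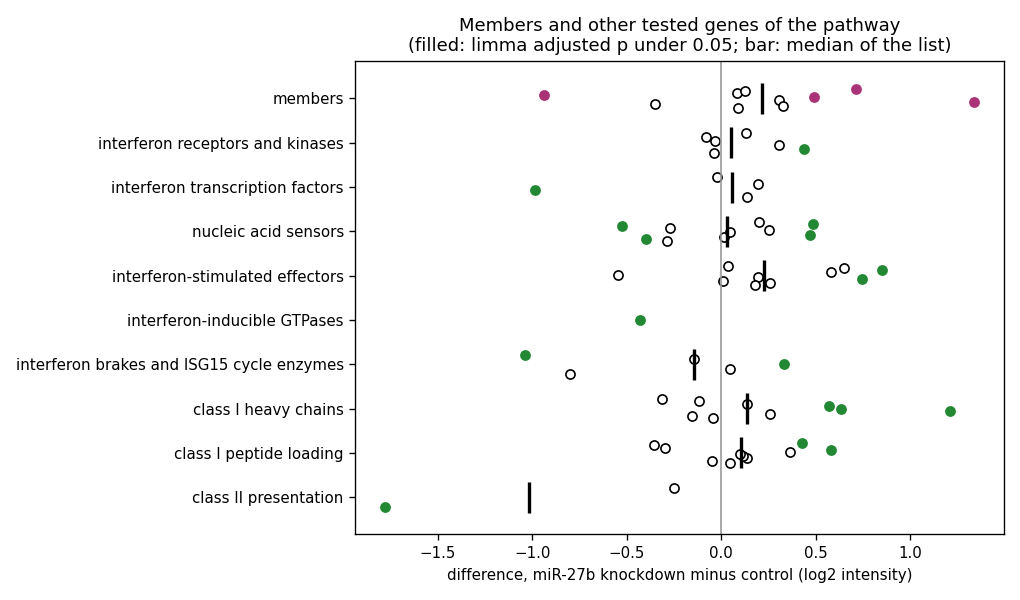
Differences of the 10 members and of the 57 other tested pathway genes by list, knockdown minus control in log2 intensity; filled points passed a limma adjusted p of 0.05 and bars are list medians. Calls lie on both sides of 0 among the sensors and the brakes. They lie on the higher side alone among class I, peptide loading, effector, and receptor and kinase genes. Among transcription factors, GTPases and class II genes they lie on the lower side alone.

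Sensors of nucleic acids, the start of the pathway, moved in both directions, with 2 of 10 tested genes higher, 2 lower and 6 not passing. Trex1, an exonuclease that clears cytosolic DNA, rose by 0.49 (SE 0.091, limma adjusted p = 0.00889) and by 0.81 on its other detected probe (adjusted p = 0.00177). Cgas, the cytosolic DNA sensor, rose by 0.47 (SE 0.14, adjusted p = 0.0407), but its other probe differed by -0.20 (adjusted p = 0.565) and its call was lost with the replicate block (adjusted p = 0.0785). Eif2ak2, the double-stranded RNA kinase PKR, differed by -0.52 (SE 0.13, adjusted p = 0.0224). Tbk1, the kinase that activates IRF3, differed by -0.40 (SE 0.080, adjusted p = 0.0112).

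Among receptors and kinases 1 of 6 tested genes rose and 0 fell (0 at an unadjusted p under 0.05). That gene was Jak2, a kinase of the interferon gamma receptor, at 0.44 (SE 0.084, limma adjusted p = 0.00966), or 0.50 on its other probe. Of 4 tested transcription factors 0 rose (1 at an unadjusted p under 0.05) and 1 fell: Irf2, a factor known to restrain ISRE-driven genes, differed by -0.98 (SE 0.11, adjusted p = 0.00167). The interferon brakes and ISG15 cycle enzymes had 1 higher and 1 lower of 5, or 2 lower with the replicate block, which added Ube2l6 (-0.80). Socs3, a feedback inhibitor of Janus kinase signalling, was detected on 3 control arrays and on no knockdown array, and was at least 1.53-fold lower (at least 1.24-fold without background correction; fitted difference -1.04, adjusted p = 0.00773). Ptpn11, which encodes the phosphatase SHP-2, rose by 0.33 (SE 0.073, adjusted p = 0.0159). Neither of the remaining Ptpn11 probes, at 0.38 and 0.17, passed (adjusted p over all detected probes 0.0533 and 0.346).

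Of 42 listed interferon-stimulated effectors 40 were named on the array and only 10 were detected well enough to test. Of these 2 rose, 0 fell (0 at an unadjusted p under 0.05 too) and 8 did not pass, with a median of 0.22 that was 0.037 when dim probes were not filtered out; with the replicate block 4 were higher, Ifi30 (0.65) and Pml (0.58) being added. Trim21, a cytosolic antibody receptor and ubiquitin ligase, was detected on no control array and on all 3 knockdown arrays, and was at least 1.24-fold higher (at least 1.11-fold without background correction; adjusted p = 0.0126). Rnf213, a large ubiquitin ligase, rose by 0.75 (SE 0.16, limma adjusted p = 0.0156). Close relatives of Ifitm3 did not pass: Ifitm1 differed by -0.55 (adjusted p = 0.137) and Ifitm2 by 0.012 (adjusted p = 0.977). Of 13 interferon-inducible GTPases 1 was tested, Irgm1, which fell by 0.43 (SE 0.078, adjusted p = 0.00773). Its other probe was far dimmer, with a normalised log2 control mean of 6.30 against 13.79. That probe differed by -0.098 (adjusted p over all detected probes 0.737). With the mean of the detected Irgm1 probes the call was lost (-0.26, limma adjusted p = 0.0989). None of the 6 interferon-induced chemokines named on the array was tested.

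Class I heavy chain genes beside H2-K1 had 3 of 9 tested genes higher, where 17.1% of all genes were higher. By limma 0 were lower, against 1 before adjustment of p. H2-D1, the other classical heavy chain of this strain, rose by 0.64 (SE 0.12, limma adjusted p = 0.0102), and by 0.77 on its other probe (adjusted p = 0.0103). Cd1d1, which presents lipids, rose by 1.21 (SE 0.31, adjusted p = 0.0254). It was seen above background on only 2 of the 3 control arrays, and its difference was 0.68 when no background was subtracted. H2-M5 rose by 0.57 (SE 0.16, adjusted p = 0.0336; 0.0601 with the replicate block), its probe carrying a clone name on the platform that was matched to this gene through RefSeq. In peptide loading 2 of 10 rose and 0 fell (0 at an unadjusted p under 0.05, though Calr, at -0.36, was lower with the replicate block): Psme2 at 0.58 (SE 0.11, adjusted p = 0.00936) and Psme1 at 0.43 (SE 0.069, adjusted p = 0.00499), the subunits of the interferon-inducible proteasome activator. The other Psme1 probe, at 0.28, did not pass (adjusted p over all detected probes 0.113). The median was 0.14 for the heavy chains, or 0.071 without control replicate 2 and 0.057 without knockdown replicate 2. For peptide loading it was 0.11, or 0.043 without control replicate 2, 0.047 without knockdown replicate 3 and -0.0047 with median scaling. The immunoproteasome subunits Psmb8, Psmb9 and Psmb10 did not pass, at 0.14, 0.37 and 0.12.

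Class II presentation, which belongs to professional antigen-presenting cells, was mostly below detection, with 2 of 12 genes tested. H2-Ab1, the class II beta chain gene, was detected on 3 control arrays and on no knockdown array, and was at least 2.73-fold lower after knockdown (at least 1.77-fold without background correction; fitted difference -1.78, limma adjusted p = 0.00351). Its other probe differed by -0.65 (adjusted p = 0.32). H2-DMa differed by -0.25 (adjusted p = 0.0648), and by -0.32 on its other probe (adjusted p over all detected probes 0.0496). Of the 17 microglia and macrophage markers named on the array, 10 were detected on no array, among them Cx3cr1, Tmem119, Itgam, Csf1r and Trem2. Of the 5 tested, 1 rose and 1 fell: Adgre1, on no control array and at least 3.55-fold higher (at least 2.11-fold without background correction), and Cd68, at -1.01 (adjusted p = 0.00396). The summed normalised intensity of these 5 ran from 275 to 383 in controls and from 462 to 527 after knockdown. Without Adgre1, a choice made after seeing the data, the sum of the other 4 overlapped, at 243 to 337 in controls and 258 to 300.2 after knockdown. The part of these cells in the presentation results was not tested.

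Leaving out 1 array at a time, 11 of the 17 pathway calls were kept whichever array was left out. The other 6 were Cgas, Eif2ak2, Rnf213, Ptpn11, Cd1d1 and H2-M5. The call of Cgas was lost without any of the 3 control arrays or knockdown replicates 1 or 2, Eif2ak2 without control replicate 1 or any knockdown array, and Rnf213 without knockdown replicate 1 or 2. Ptpn11 and H2-M5 lost theirs without control or knockdown replicates 1 or 2, and Cd1d1 without any 1 control array. The highest adjusted p of these genes were 0.116, 0.063, 0.0532, 0.0569, 0.106 and 0.0734 in that order of Cgas, Eif2ak2, Rnf213, Ptpn11, H2-M5 and Cd1d1. Of the 11 genes that rose, 6 did not pass with median scaling (Cgas, H2-D1, Jak2, Psme1, Ptpn11 and Trex1), while all 6 that fell still passed.

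The labelled cell type was checked against neuronal markers. Of 14 listed, 11 were tested, among them Map2, Syn1 and Rbfox3, while the Snap25, Nefl and Neurod6 probes were detected on no array. Among the 11, 1 rose and 5 fell: Stmn2 rose by 0.31 (limma adjusted p = 0.0268), and Gad2 and Gad1, the GABA synthesis genes, differed by -2.05 and -1.03 (adjusted p = 0.000221 and 0.000868). The Gad2 probe was likewise matched from a clone name. The call of Stmn2 was lost without any 1 array other than knockdown replicate 2 (adjusted p up to 0.0878). Of the 6 tested vascular and fibroblast markers 0 rose and 0 fell by limma (Col1a1 had the smallest p, at 0.45 with an adjusted p of 0.065), and Cldn5 and Cdh5, which mark endothelium, were detected on no array. At an unadjusted p under 0.05 there was 1 in each direction, Col1a1 and Kdr (-0.44), and with the replicate block 1 in each, Col1a1 and Pecam1 (-0.38). Of the 4 tested oligodendrocyte lineage markers 0 rose and 0 fell, with Olig1 at -0.63 (adjusted p = 0.0523); it was lower at an unadjusted p under 0.05, and with the replicate block 2 were, Olig1 and Cnp (-0.46).

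Genes whose profile over the 6 arrays was most like that of B2m were the predicted gene Gm6483 (Pearson r = 0.9999), Cercam (0.999) and Nucb1 (0.999). This is a description over 6 arrays that share their groups, and 812 genes had r over 0.95. They differed by 0.96, 1.21 and 0.53 on the normalised log2 scale.

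**Figure D5:**
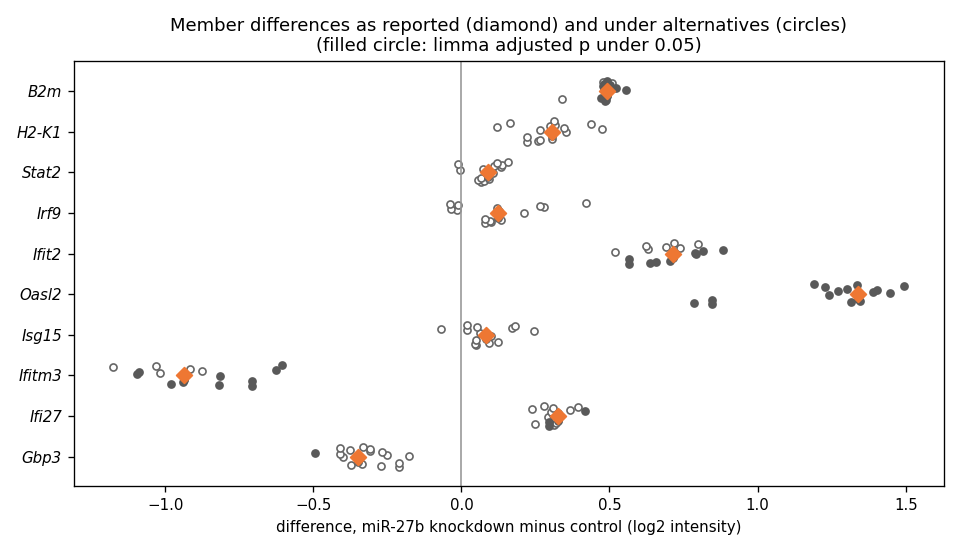
Difference of each member, knockdown minus control in log2 intensity, as reported (diamonds) and under each alternative processing or with arrays left out (circles; filled where the limma adjusted p was under 0.05). Oasl2, which met the main detection filter through its knockdown arrays alone, was called under all 19 alternatives that tested it. B2m was called under 17 of 20, and H2-K1, Stat2, Irf9 and Isg15 under none. The alternatives without background correction and with the other deposited table gave the same values.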

How the data were processed

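Wells held 500000 neurons, and 500 ng of total RNA went into each biotin labelling, per the labels' protocols. The deposited intensity values are linear, 1 per probe and array and not normalised between arrays, beside a detection p-value per probe, per the file headers. The other deposited table of intensity values equalled the quantile-normalised first table and served as an alternative. What the scanner software subtracted is not given in the sources used here.

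Background was corrected by normexp from the detection p-values (offset 16), followed by quantile normalisation and log2 of the deposited intensities, in limma 3.58.1 under R 4.3.3. The filter kept 18627 probes whose detection p was below 0.05 in 3 or more arrays. Of 45281 probes 35784 had 1 gene symbol, none had several and 9497 had none. Symbols were updated for 3280 probes through RefSeq gene ID, accession or synonym (GRCm38.p6), but none was renamed to a member. A gene took the values of its brightest detected probe. Groups were compared by lmFit and eBayes on all 6 arrays, with Benjamini-Hochberg adjustment. The fit was first tried on simulated data with independent noise and few changed genes. Those settings differ from these data, so that trial does not give the error rate of the calls here. Exact permutation tests were two-sided.

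All 10 members are named. Each pathway list gives up to 3 genes per direction past the threshold with the largest difference (markers up to 2), or, if none passed, the gene of smallest p. Genes added after values were seen are Ifitm1, Ifitm2, Psmb8, Psmb9, Psmb10, H2-DMa, Ifi30, Pml, Ube2l6, Calr and Gjb6. Kdr, Pecam1, Cnp, Syt1, Slc17a7, Rbfox3 and markers given only as detected or not were added then too. The members and lists were chosen with earlier results of these data known. Deviations from the group means went together in same-numbered arrays (correlations of 0.15, 0.26 and 0.26 across genes). The series also describes 3 preparations, so a fit with same-numbered arrays as pairs was run as an alternative. The main fit held group alone, so its SEs, intervals and p-values do not use this pairing. Every gene-level difference was refitted with the replicate number as a block. The fits of single probes were not. Other alternatives changed the filter, the choice of probe, the variance model, array weights, normalisation, background correction and starting values, or left out arrays.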

Additional observations from a re-analysis of the deposited data

How the results depend on the processing

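Across 20 alternatives for each member (19 for Oasl2 and Isg15, which a filter of detection p under 0.01 on all 6 arrays removed), B2m, H2-K1, Ifit2, Oasl2, Ifitm3, Ifi27 and Gbp3 kept their direction. Of these alternatives, the fit without background correction and the fit on the other deposited table gave the same values, so they are not separate checks. The differences that turned below 0 were those of Isg15 (-0.068 to 0.25), Irf9 (-0.038 to 0.42) and Stat2 (-0.011 to 0.16), each only with arrays left out and never called. The count of members higher, 3, was 1 to 3 with arrays or pairs left out, and that of members lower, 1, was 0 to 2; it was 0 when dim probes were not filtered (limma adjusted p of 0.0595 for Ifitm3, and 0.0601 for Ifit2, whose call was lost too) and 2 with the replicate block, which added Gbp3. The block also added Ifi27, Ifi30, Pml and Col1a1 on the higher side and Ube2l6, Calr, Pecam1, Olig1 and Cnp on the lower, and removed the calls of Cgas and H2-M5; it changed no other call of a gene named here. For pathway genes the 11 higher were 5 with median scaling and 1 to 14 with arrays left out, and the 6 lower were 3 to 7. For all genes the 1852 higher were 905 with median scaling and 602 to 1674 with arrays left out, and the 1663 lower were 556 to 1433; the lowest counts came without the pair of arrays numbered 1, where fewer samples remain. The cause of the shift under median scaling was not tested. Sizes of dim probes such as Oasl2 depend on the background correction. Signal near background limits Isg15, Oasl2 and most of the effector list.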
